A study of Arabidopsis thaliana with 12 samples.

Results

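The evening genes of the circadian clock of Arabidopsis thaliana were followed through the 4 groups of a seedling RNA sequencing experiment. Their 9 members were picked by locus code out of the 28775 genes listed, namely TOC1 (AT5G61380), PRR5 (AT5G24470), PRR3 (AT5G60100), ELF3 (AT2G25930), ELF4 (AT2G40080), LUX (AT3G46640, annotated as PCL1), GI (AT1G22770), FKF1 (AT1G68050) and ZTL (AT5G57360). The rule names loci and no expression value, and 8 of the 9 had enough counts for a test, ELF4 being the exception.

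Seedlings of ecotype Col-0 were harvested when 3 weeks old from cycles of 12 h light and 12 h dark, with 3 libraries in each group. The first line carried a snrk1-alpha-1 knockout with an inducible snrk1-alpha-2 knockdown, which target the catalytic subunits of SnRK1, a kinase of energy shortage. From an age of 14 d it received Est, as the labels name the treatment, for 6 d, and a wild type was treated alike. The second line targeted the S1 group of bZIP transcription factors, bZIP1 and bZIP53 by knockout and bZIP2, bZIP11 and bZIP44 by a knockdown that can be induced. It and a second wild type grew for a further 5 d without Est and then had Est for 1 d. Every group then spent 6 h in an extended night and was collected at the same time, so no library here is without Est or without the extended night. The promoters behind the inducible knockdowns are not stated in the labels.

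The plant clock is a ring of repressors that act at different times of day. The morning MYB factors CCA1 and LHY repress evening genes by binding a short promoter sequence called the evening element, and the pseudo-response regulators, of which TOC1 is the evening one, repress CCA1 and LHY in turn. ELF3, ELF4 and LUX form the evening complex, a night-time repressor in which LUX binds DNA. ZTL and FKF1 are light-sensing F-box proteins that mark clock and flowering proteins for breakdown, and GI is their large partner protein. In a normal day CCA1 and LHY peak near dawn and most evening genes around dusk. Every group here was collected at the same time, in the extended night. A changed level of a cycling gene therefore cannot be told apart from a change in the timing of its rhythm.

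The evening element, AAAATATCT, was searched on both strands in the 500 bases before each annotated start, since CCA1 and LHY are known to act through it. It was present in 4 of the 9 evening genes, with 6 matches, in 0 of 13 morning clock genes, and in 4.47% of 26703 promoters of the same length. The stretches are shown so that the place of each match in the promoter can be seen. They were read from the TAIR10.1 genome, on the strand of each gene, with the element in capitals, and AGATATTTT is the element on the opposite strand.
TOC1, chr5:24674802-24674830 (+), element 151 bases before the start: aaatatcatgAGATATTTTctccaagatg
LUX, chr3:17182979-17183007 (+), element 53 bases before the start: tagaagatctAAAATATCTagctaactcg
PRR5, chr5:8358820-8358848 (-), element 292 bases before the start: caattctactAGATATTTTttcaaatcca
PRR5, chr5:8358715-8358743 (-), element 187 bases before the start: gattttttctAGATATTTTcttttctcca
FKF1, chr1:25508256-25508284 (+), element 373 bases before the start: gcgtttcacaAAAATATCTattatttgac
FKF1, chr1:25508443-25508471 (+), element 186 bases before the start: tgagtaggctAGATATTTTctcggaatat

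PRR5 and FKF1 each held a pair of elements, and TOC1 and LUX a single one. The annotated PRR5 model starts at its start codon, so its distances count from there. No match was found for GI, ELF3, ELF4, PRR3 or ZTL, which says only that these letters are not in this window. The related CCA1-binding site AAAAATCT was found in 1 evening gene, PRR5, and in 12.6% of all promoters. A site of LUX itself, GATACG or GATTCG, was found in TOC1, ELF3, ELF4 and LUX, against 22.6% of all promoters. For the motifs linked to bZIP proteins, the G-box CACGTG was in LUX alone among the members, against 9.46% of all promoters and 7 of 13 morning genes. The C-box GACGTC was in none of the members and in 3.83% of promoters, and the GCN4-like letters ACTCAT were in ELF3 and LUX and in 24.3% of promoters. A match is a description of the letters and not a measured binding site.

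Library totals ran from 3760168 to 9403687 counts. Levels are given as normalised CPM, counts scaled to a common library size with edgeR's TMM factors. Group differences are log2 fold changes with standard error (SE) from edgeR's quasi-likelihood test on all 12 libraries. A gene is called where its Benjamini-Hochberg adjusted p over the 18388 genes tested is under 0.05, while 95% intervals are for a single gene and are not adjusted. Groups whose libraries do not overlap are described as such without a test, and how many of all genes separate so was not counted. Whether the replicates were grown as separate cultures is not stated. A p-value here weighs a group difference against the spread within groups, and that spread may be only technical. The first principal component held 79.0% of the variance and set the 3 libraries of the SnRK1 line apart from the other 9. The scaling mattered most there: the median log2 fold change of all genes in that comparison was 0.04 by TMM, 0.40 by TMM on the 5000 most expressed genes and 0.64 by library totals alone. Of the targeted genes, KIN11 (snrk1-alpha-2) fell from 99.4 ± 14.5 to 33.6 ± 8.53 CPM (SD, n = 3) in the SnRK1 line. KIN10 (snrk1-alpha-1) fell by 0.50 on the log2 scale, but was not called on the 5000 most expressed genes (-0.13) or, with the opposite sign, by library totals alone (0.10). In the S1 line bZIP1 fell by 2.62 and bZIP53 by 2.26 on the log2 scale, but none of the 3 knockdown targets was called lower, against the label. bZIP2 stood at 66.1 ± 7.24 CPM in wild type and 66.7 ± 6.99 CPM in the line (SD, n = 3), and bZIP11 (1.42 and 1.18 CPM) and bZIP44 (1.00 and 1.94 CPM) were scarce in both. In the SnRK1 line bZIP11 (5.66), bZIP44 (2.45), bZIP53 (0.56) and bZIP2 (0.33) were called higher and bZIP1 (-1.55) lower. The bZIP2 call was lost without replicate 1 of the wild type (0.27). Each of these bZIP genes had counts identical to those of a second listed locus. KIN11 was called lower in the S1 line too (-0.80, adjusted p = 0.0135, edgeR). That call was lost without replicate 2 of its wild type (-0.71) or replicate 1 (-0.74) or 2 (-0.79) of the line. The lines are therefore called the SnRK1-labelled and the S1-labelled line.

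In the SnRK1-labelled line the evening genes did not move together: PRR5 and ZTL fell, GI and LUX rose, and TOC1, ELF3, PRR3 and FKF1 were not called. These 4 calls among 8 members tested stand against 68.4% of all genes called in this comparison, 35.4% higher and 33% lower. With 8 members no difference from that share is read. By library totals alone 4 members were higher and 2 lower, where 10465 genes were higher and 2938 lower. On the 5000 most expressed genes members were again 4 and 2, and all genes 8792 and 4004. The median log2 fold change was -0.01 over the 8 members and 0.04 over all genes. The comparison asks how depletion of SnRK1 bears on gene expression at the end of a prolonged night.

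PRR5, a pseudo-response regulator that represses CCA1 and LHY from the afternoon into the evening, changed most. It stood at 25.1, 23.7 and 34.6 CPM in the 3 wild-type libraries and at 5.27, 6.14 and 8.41 CPM in the SnRK1-labelled libraries. Every library of the line lay below every wild-type library. The fall was 2.06 ± 0.17 on the log2 scale (SE; adjusted p = 2.21e-08, edgeR), a level 0.239 of wild type, and 3.42% of all genes had a lower log2 fold change. PRR5 was called lower in all 22 other settings tried, between -2.27 and -1.46.

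TOC1, the regulator that closes the loop with CCA1, was at 33.7, 30.6 and 32.6 CPM in wild type and at 37.0, 37.7 and 37.7 CPM in the line. The groups did not overlap, yet the log2 difference of 0.21 ± 0.12 (SE; 95% interval -0.03 to 0.46) missed the threshold, with an adjusted p of 0.114 from edgeR. It was called higher by library totals alone (0.82) and by TMM on the 5000 most expressed genes (0.58), where the median gene stood at 0.64 and 0.40. PRR3, which in Arabidopsis is reported to shield TOC1 from ZTL, was scarce, with 4 to 17 counts in wild type and 7 to 19 in the line. Its log2 difference of -0.39 ± 0.38 (SE; adjusted p = 0.378, edgeR) had a 95% interval from -1.20 to 0.42, and its sign turned by library totals alone (0.23).

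**Figure D1:**
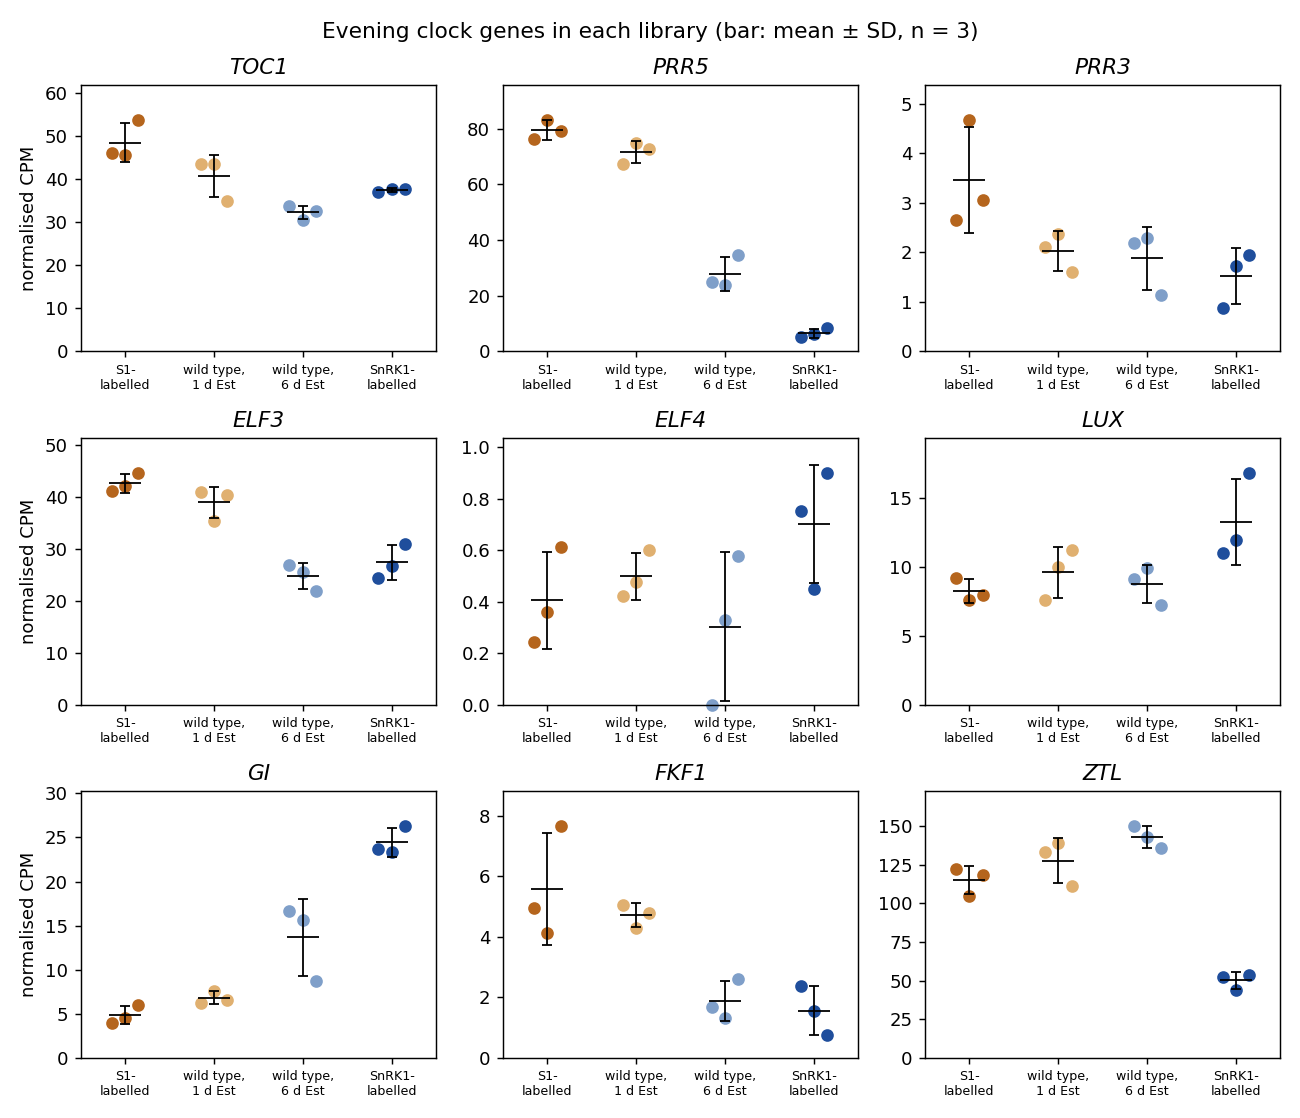
Normalised CPM of each of the 9 evening clock genes (vertical axes, each starting at 0) in the 12 libraries, by group; each dot is a library and each bar a mean ± SD (n = 3). PRR5 and ZTL are lowest and GI highest in the SnRK1-labelled line, while ELF4 stays under 1 CPM in every library.

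Within the evening complex LUX rose, ELF3 was not called and ELF4 was too scarce to test. LUX, the DNA-binding subunit, was at 9.14, 9.88 and 7.21 CPM in wild type and at 11.0, 11.9 and 16.8 CPM in the line. The groups did not overlap, with the third library of the line above the other two. The log2 fold change of 0.56 ± 0.20 (SE; adjusted p = 0.0192, edgeR) is 1.47-fold, and 67.3% of all genes had a lower one. LUX was called in 20 of 22 other settings. It missed the threshold when replicate 3 of the wild type (0.46, adjusted p = 0.0716) or replicate 3 of the line (0.34, adjusted p = 0.131) was left out. On the opposite strand AT3G46650 overlaps 17.8% of the LUX exon bases, and without strand information reads from the 2 genes cannot be told apart. AT3G46650 itself was listed at 0.643, 0.658 and 0.577 CPM in wild type and at 3.01, 2.98 and 1.05 CPM in the line, and its part in the LUX difference was not tested.

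ELF3, the scaffold of the complex, was at 26.9, 25.5 and 21.9 CPM in wild type and at 24.4, 26.7 and 31.0 CPM in the line. The groups overlapped, and the log2 difference was 0.12 ± 0.12 (SE; adjusted p = 0.38, edgeR), with a 95% interval from -0.14 to 0.39. By library totals alone ELF3 was called higher (0.74), as it was by TMM on the 5000 most expressed genes (0.49). ELF4, a small protein that strengthens the activity of ELF3, had counts of 0, 2 and 2 in wild type and of 6, 5 and 6 in the line. These are means of 0.302 ± 0.290 and 0.702 ± 0.229 CPM (SD, n = 3), and the ranges overlapped after scaling. The counts summed to 4 in wild type and 17 in the line, and the difference was not tested.

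GI rose and its partner ZTL fell, while FKF1, the other partner, was not called. GI was at 16.7, 15.6 and 8.66 CPM in wild type and at 23.7, 23.3 and 26.3 CPM in the SnRK1-labelled line. All 3 libraries of the line were above the wild type, whose replicate 3, the shallowest library, was the low one. The log2 fold change was 0.78 ± 0.18 (SE; adjusted p = 0.00121, edgeR), or 1.72-fold, and 72.4% of genes had a lower one. Without wild-type replicate 3 it was 0.58, and GI was called higher in all 22 other settings.

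ZTL, the F-box protein that targets TOC1 and PRR5 for breakdown, was at 150, 143 and 136 CPM in wild type and at 52.4, 43.9 and 53.8 CPM in the line. No library of the line came near the wild type. The fall of 1.52 ± 0.12 on the log2 scale (SE; adjusted p = 1.74e-08, edgeR) left 0.349 of the wild-type level and was called in all 22 other settings, from -1.60 to -0.93. FKF1, the flowering-time member of the ZTL family, had 8 to 13 counts in wild type and 5 to 19 in the line. Its log2 difference was -0.15 ± 0.42 (SE; adjusted p = 0.774, edgeR), with a 95% interval from -1.03 to 0.74. That sign turned by library totals alone (0.45), on the 5000 most expressed genes (0.22), and without replicate 3 of either group (0.06 without the wild-type library, 0.10 without that of the line).

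**Figure D2:**
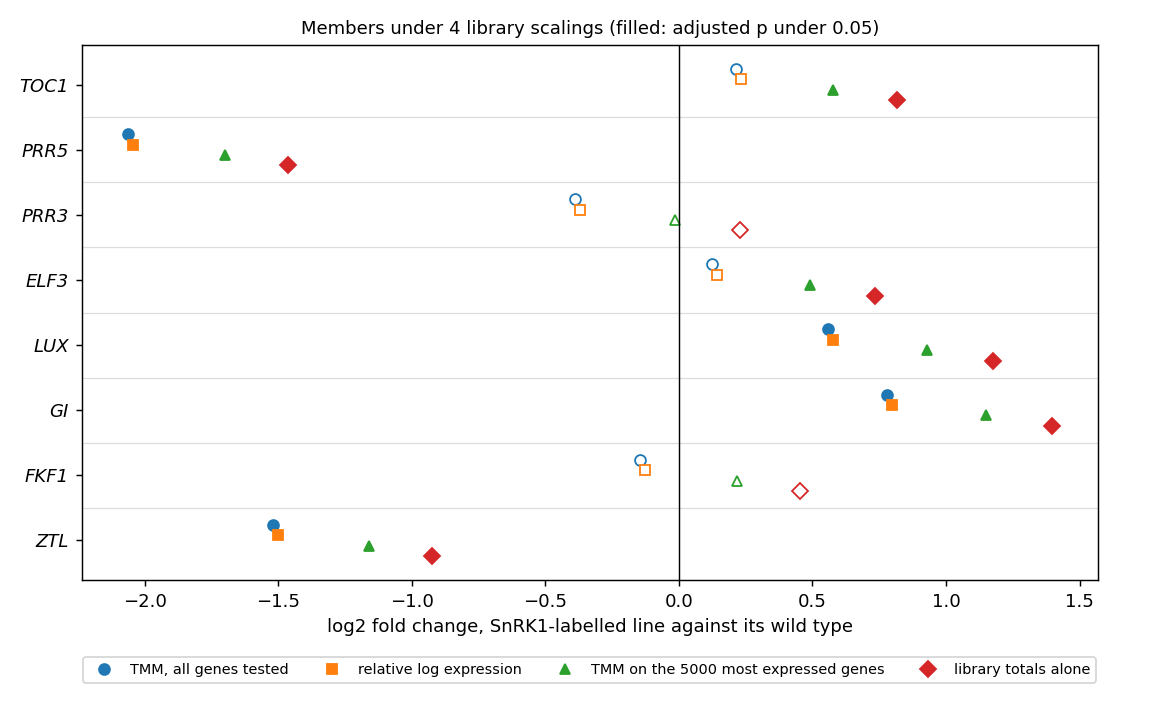
Log2 fold change of the 8 evening genes tested in the SnRK1-labelled line against its wild type (horizontal axis) under 4 ways of scaling the libraries, filled where the adjusted p is under 0.05. PRR5 and ZTL stay below 0 and GI and LUX above 0 under each of the 4 scalings, while TOC1 and ELF3 are filled under the 2 scalings that move all genes upward.

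Ratios of counts within a library do not depend on the scaling. PRR5 had 0.744, 0.774 and 1.06 counts for each TOC1 count in the 6 d wild type, and 0.142, 0.163 and 0.223 in the SnRK1-labelled line. For ZTL the ratio to TOC1 was 4.44, 4.66 and 4.19 in wild type and 1.42, 1.16 and 1.43 in the line. For both genes the groups were far apart. The GI to TOC1 ratio was 0.496, 0.511 and 0.265 in wild type and 0.641, 0.617 and 0.697 in the line, again with no overlap. The LUX to TOC1 ratio was 0.271, 0.323 and 0.221 in wild type and 0.298, 0.316 and 0.446 in the line, so these groups overlapped although the CPM of LUX did not. Such a ratio also moves with the level of TOC1 itself.

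Some markers of other tissues were lower in the SnRK1-labelled line. The summed level of 6 root markers was 10.4 to 15.5 CPM in the 6 d wild type and 0.722 to 1.76 CPM in the line, and 3 of the 6 could be tested, all of them lower. Of the untested, EXPA7, a root hair marker, summed to 0 counts in that wild type and 2 in the line. RHD6 summed to 2 and 4 counts, and COBL9 to 2 in both. The sum of 4 flower markers was 1.98 to 8.08 CPM in wild type and 0.15 to 0.878 CPM in the line. In wild type that was almost all PI, a petal and stamen identity gene, at 1.98 to 8.08 CPM alone. Only PI could be tested, and it was lower, at 0.15 to 0.50 CPM in the line. AP3 and AG went from 0 counts to 1 and 2, and AP1 from 1 count to 0. In whole seedlings fewer cells of a type and less RNA per cell cannot be told apart, and the part of tissue composition in the changes of PRR5, ZTL, GI and LUX was not tested.

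In the S1-labelled line none of the 8 members tested was called by edgeR, where 2.58% of all genes were called, 1.63% higher and 0.952% lower. At an unadjusted p under 0.05 there was 1 member, TOC1, and DESeq2 and limma-voom also called 0. TOC1 was at 43.6, 43.5 and 35.0 CPM in the 1 d wild type and at 46.1, 45.6 and 53.8 CPM in the line. All of the line's libraries were above the wild type, but the log2 difference of 0.25 ± 0.11 (SE) had an adjusted p of 0.286 from edgeR. Its 95% interval, which is not adjusted for the number of genes, ran from 0.0091 to 0.49.

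PRR5 was at 67.2, 74.7 and 72.8 CPM in the 1 d wild type and at 76.1, 83.2 and 79.0 CPM in the S1-labelled line, a log2 difference of 0.15 ± 0.14 (SE; adjusted p = 0.643, edgeR). Its 95% interval ran from -0.14 to 0.44. PRR3 was at 2.11, 2.38 and 1.60 CPM in wild type and at 2.66, 4.68 and 3.06 CPM in the line. These groups did not overlap either. The log2 difference of 0.74 ± 0.36 (SE; adjusted p = 0.313, edgeR) had a 95% interval from -0.0081 to 1.49 and rested on few counts. How many of all genes separate in this way was not counted, so no response of an uncalled member is read from it.

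GI was the member with the lowest log2 difference in the S1-labelled line. It was at 6.19, 7.61 and 6.60 CPM in wild type and at 3.99, 4.50 and 5.97 CPM in the line, all below the wild type. The difference of -0.49 ± 0.25 (SE; adjusted p = 0.346, edgeR) had a 95% interval from -1.01 to 0.036. The remaining members had 95% intervals that also held 0. These ran from -0.64 to 0.26 for LUX, from -0.13 to 0.37 for ELF3, from -0.41 to 0.89 for FKF1 and from -0.41 to 0.11 for ZTL. ELF4 had 2 to 3 counts in wild type and 2 to 4 in the line.

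The difference between the 2 responses was tested as SnRK1-labelled minus S1-labelled, each against its own wild type. It was called for GI (1.27 ± 0.31, SE; adjusted p = 0.00245, edgeR), PRR5 (-2.22 ± 0.22; adjusted p = 8.48e-07) and ZTL (-1.37 ± 0.17; adjusted p = 7.9e-06). LUX was also called (0.75 ± 0.29; adjusted p = 0.038), which makes 4 of 8 members where 54.5% of all genes were called, 27.2% higher and 27.3% lower. The LUX call held in 13 of 21 other settings. It was lost with limma-voom (0.67) and without 7 of the 12 libraries taken out singly, with adjusted p-values up to 0.118. Those 7 were replicates 1 and 3 of the 6 d wild type (0.77 and 0.65), replicate 3 of the SnRK1-labelled line (0.51), replicates 2 and 3 of the 1 d wild type (0.71 and 0.61) and replicates 2 and 3 of the S1-labelled line (0.65 and 0.72). PRR3 missed the threshold at -1.13 ± 0.52 (SE; adjusted p = 0.0776, edgeR) and crossed it without replicate 3 of the 6 d wild type (-1.32) or of the SnRK1-labelled line (-1.34). TOC1 (-0.04), ELF3 (0.00) and FKF1 (-0.38) were not called. By library totals alone TOC1 (0.45) and ELF3 (0.49) were called. The lines also differ in the length of Est treatment, which cannot be told apart from the genotype in this difference.

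**Figure D3:**
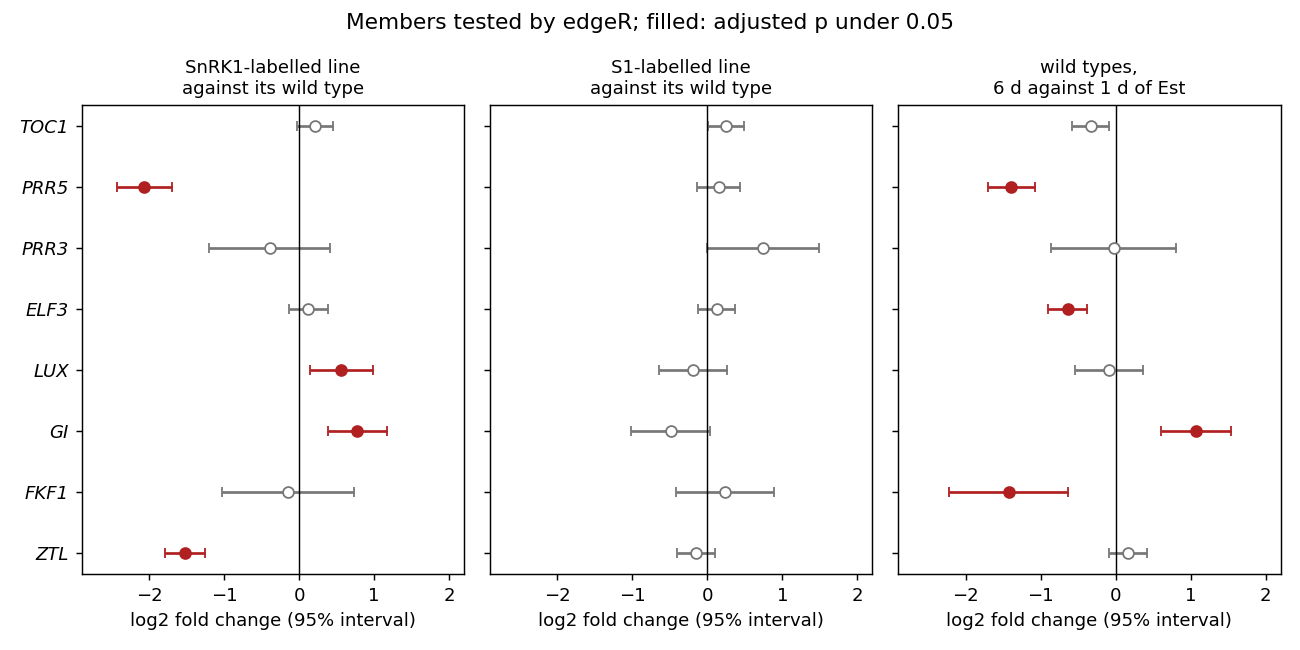
Log2 fold change with its 95% interval (horizontal axes) for the 8 evening genes tested in 3 comparisons, filled where the adjusted p is under 0.05. In the S1-labelled line no gene is filled and only the interval of TOC1 stays clear of 0, from 0.0091, while PRR5 lies below 0 in the other comparisons and GI above it.

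The 2 wild types differed in their evening genes as well. They differ by 6 d against 1 d of Est, and any other difference between the 2 sets of plants cannot be told apart from it. The 6 d libraries are also the control of the SnRK1-labelled line, so the 2 comparisons share them. PRR5, ELF3 and FKF1 were lower and GI higher after 6 d, which is 4 of 8 members where 12.1% of all genes were called, 6.17% higher and 5.94% lower. Some tissue markers differed here too. The root markers summed to 10.4 to 15.5 CPM after 6 d and 3.66 to 11 CPM after 1 d, with 1 of the 3 tested higher. Of the untested, EXPA7 went the other way, with 0 counts after 6 d and 7 after 1 d. RHD6 summed to 2 and 1 counts, and COBL9 to 2 in both. The flower markers summed to 1.98 to 8.08 CPM after 6 d and 0.703 to 0.999 CPM after 1 d, where AP1 and AP3 were at 0. These sums were mostly PI, which was called higher, at 1.98 to 8.08 CPM and 0.703 to 0.80 CPM alone. AG went the other way, with 0 counts after 6 d and 2 after 1 d. The part of these markers in the changes of PRR5, ELF3, FKF1 and GI was not tested.

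PRR5 was at 25.1 to 34.6 CPM after 6 d and at 67.2 to 74.7 CPM after 1 d, a fall of 1.39 ± 0.15 on the log2 scale (SE; adjusted p = 6.06e-05, edgeR). Only 1.81% of genes had a lower log2 fold change. GI was at 8.66 to 16.7 CPM after 6 d and 6.19 to 7.61 CPM after 1 d, 2.11-fold higher (log2 1.08 ± 0.22, SE; adjusted p = 0.00481, edgeR), and 97.6% of genes had a lower fold change. The 2 groups did not overlap for either gene. ELF3 averaged 24.8 ± 2.56 CPM after 6 d and 38.9 ± 3.03 CPM after 1 d (SD, n = 3), a fall of 0.64 ± 0.12 on the log2 scale (SE; adjusted p = 0.00357, edgeR).

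FKF1 had 13, 8 and 9 counts after 6 d, or 1.67, 1.32 and 2.60 CPM, and 36, 18 and 24 counts after 1 d, or 5.06, 4.28 and 4.80 CPM. The groups did not overlap, and the fall was 1.43 ± 0.38 on the log2 scale (SE; adjusted p = 0.0212, edgeR). FKF1 was called in 17 of 21 other settings. It missed the threshold when replicate 1 (-1.38) or 2 (-1.24) of the 6 d wild type or replicate 1 (-1.36) or 3 (-1.42) of the 1 d wild type was left out, with adjusted p-values from 0.0566 to 0.0985. TOC1 was lower in every 6 d library than in any 1 d library, and its difference of -0.33 ± 0.12 (SE; adjusted p = 0.0769, edgeR) missed the threshold. Without replicate 3 of the 1 d wild type TOC1 was called (-0.43, adjusted p = 0.042), as it was by library totals alone and by TMM on the 5000 most expressed genes. LUX (-0.09), PRR3 (-0.02) and ZTL (0.17) were not called.

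Levels of different genes were compared as CPM per kilobase of the longest annotated transcript. In the 6 d wild type ZTL led at a mean of 58.6 per kilobase (55.9 to 61.3), followed by PRR5 at 16.6 (14.1 to 20.7), TOC1 at 11.5 (10.9 to 12.0) and ELF3 at 9.01 (7.98 to 9.78). GI, at 3.18 (2.01 to 3.89), and LUX, at 2.70 (2.23 to 3.05), overlapped, and FKF1 at 0.859, PRR3 at 0.691 and ELF4 at 0.488 were last. The PRR5 model has no untranslated part, so its level is per coding length and is not strictly comparable.

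The order changed between groups, with shifts of both PRR5 and GI. PRR5 came next after ZTL in both wild types. It was below GI in the SnRK1-labelled line at 3.94 per kilobase (3.14 to 5.02), where its range overlapped that of LUX at 4.09 (3.40 to 5.19). LUX has 3916 exon bases in all against 3242 in that transcript, so its place relative to PRR5 depends on the length used. In the S1-labelled line PRR5 was level with ZTL, at 47.4 against 47.1 per kilobase with overlapping ranges. GI there, at 1.12 per kilobase, was below FKF1 at 2.58 and LUX at 2.54, and overlapped PRR3 at 1.27. ZTL remained first in the SnRK1-labelled line at 20.5 per kilobase, then TOC1 at 13.4 and ELF3 at 9.96. GI followed at 5.68 (5.41 to 6.11) and did not overlap LUX. In the 1 d wild type ZTL was at 52.3 and PRR5 at 42.7 without overlap, TOC1 at 14.5 and ELF3 at 14.2 overlapped, and GI, at 1.58 per kilobase, was below LUX at 2.96 and FKF1 at 2.17.

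Spread between replicates also differed among the members. The coefficient of variation of GI was 32.0% in the 6 d wild type and 6.67% in the SnRK1-labelled line. For PRR5 it was 21.4% and 24.6% in those groups, but 5.38% in the 1 d wild type and 4.51% in the S1-labelled line. ZTL stayed between 4.60% and 11.7% and TOC1 between 1.13% and 12.2% in all 4 groups.

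Around these genes, the morning clock genes fell in the SnRK1-labelled line: of 13 tested, 10 were lower and 1 higher, where 33% of all genes were lower and 35.4% higher. Their median log2 fold change was -1.52 against 0.04 for all genes. CCA1, the dawn repressor of evening genes, went from 204 ± 8.74 to 58.7 ± 6.36 CPM (SD, n = 3), a fall of 1.80 ± 0.13 on the log2 scale (SE; adjusted p = 3.96e-09, edgeR). Its relatives RVE1 (-3.08), which links the clock to auxin, RVE4 (-1.91) and RVE8 (-1.64), an activator of evening genes, fell too. Another gene overlaps 11.2% of the RVE1 exon bases. The 1 morning gene higher was PRR9 (0.64, adjusted p = 0.0177), named here after its value was seen. The 10 lower calls were the same number by library totals alone and on the 5000 most expressed genes, with medians of -0.94 and -1.17. In the S1-labelled line 0 of the 13 were called by edgeR, and 2 had an unadjusted p under 0.05. Between the wild types 3 of the 13 were lower and 1 higher after 6 d, against 5.94% and 6.17% of all genes. CCA1 (-0.82) and RVE1 (-1.25) were called lower there, while RVE4 and RVE8 were not called.

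Among 6 close relatives tested, 1 was lower and 2 were higher in the SnRK1-labelled line, 3 of 6 called where 68.4% of all genes were. By library totals alone 1 was lower and 4 were higher, and on the 5000 most expressed genes 1 and 3. LKP2, the third member of the ZTL family, fell from 71.0 ± 10.5 to 31.9 ± 4.90 CPM (SD, n = 3; log2 -1.17 ± 0.13, SE; adjusted p = 7.63e-07, edgeR), with 15.8% of its exon bases overlapped by another gene. BOA, the close relative of LUX, rose from 1.98 ± 0.791 to 3.68 ± 0.138 CPM (SD, n = 3; log2 0.99 ± 0.31, SE; adjusted p = 0.00876, edgeR). That call was lost without replicate 1 of the wild type (0.76, adjusted p = 0.0726), and AT5G59580 overlaps 45.9% of the BOA exon bases. EFL1, an ELF4-like gene, was called higher (2.41), but AT2G29960 overlaps 74.3% of its exon bases, so its counts are uncertain, while EFL2 (-0.30) was not called.

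Of 17 other clock factors, 8 were lower and 2 higher in the SnRK1-labelled line, with a median of -0.23. These 10 of 17 calls stand against 68.4% of all genes. That balance turned with the scaling, to 5 lower and 9 higher by library totals alone, and to 6 and 6 on the 5000 most expressed genes. LWD1 (-1.38), an activator of morning genes, CHE (-1.45), a TCP factor that represses CCA1, CKB3 (-1.22), a casein kinase subunit, and SKIP (-0.96), a splicing factor of the clock, fell. Among 10 outputs tested 7 were lower and 2 higher, against 33% and 35.4% of all genes. By library totals alone 5 were lower and 3 higher, and on the 5000 most expressed genes 6 and 3. The lower ones included the phytochrome interacting factor PIF5 (-1.69) and COL2 (-2.57), a CONSTANS relative with 31.8% of its exon bases overlapped by other genes. CDF2 (-1.46) and CDF3 (-1.25), of the Dof family whose members FKF1 and GI remove to allow flowering, were lower too. The RNA-binding protein gene GRP8 was the only gene of these lists called in the S1-labelled line. It rose there from 59.0 ± 11.8 CPM to 115 ± 10.08 CPM (SD, n = 3; log2 0.96 ± 0.16, SE; adjusted p = 0.00362, edgeR). GRP8 was also called higher in the SnRK1-labelled line (0.52, adjusted p = 0.00621) and in the 6 d against the 1 d wild type (0.95, adjusted p = 0.00143). Between the wild types 3 of the 10 outputs were lower and 1 higher, against 5.94% and 6.17% of all genes. COL2 (-1.09) and CDF2 (-0.71) were among the lower. Of the 4 light receptors, PHYB rose from 62.4 ± 8.76 to 233 ± 20.4 CPM (SD, n = 3; log2 1.90) in the SnRK1-labelled line, while CRY1 (-1.47), PHYA (-1.33) and CRY2 (-0.73) fell. The CRY2 call was lost by library totals alone (-0.14).

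**Figure D4:**
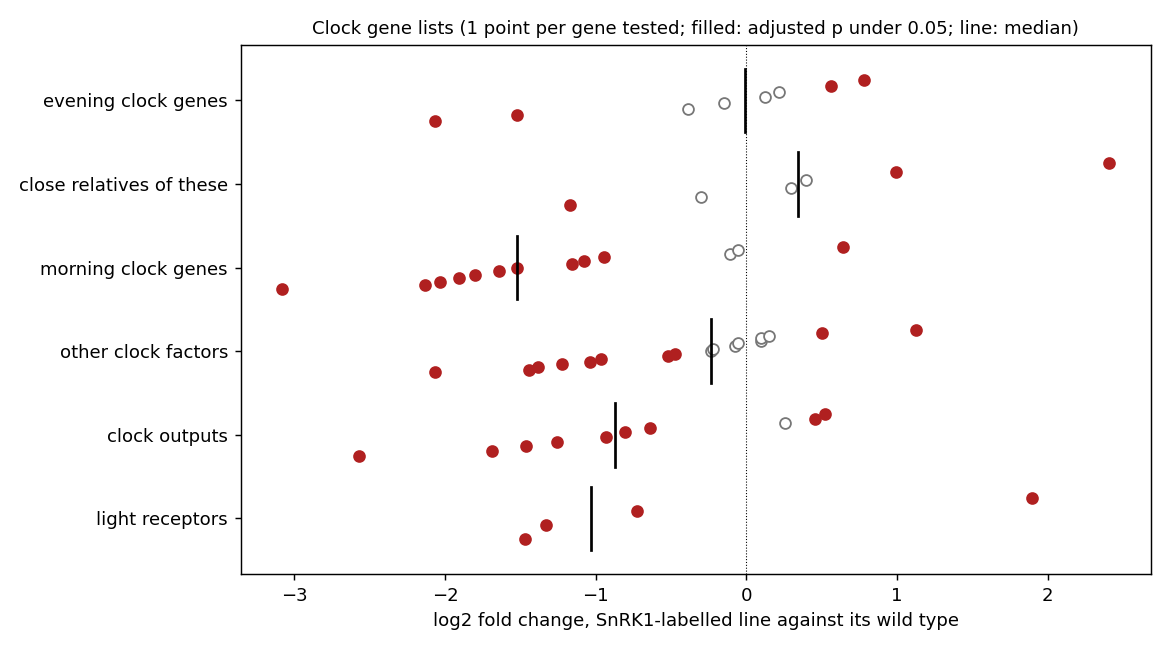
Log2 fold change in the SnRK1-labelled line against its wild type (horizontal axis) for each gene tested in 6 lists of clock and light genes; filled dots have an adjusted p under 0.05 and vertical lines are medians. The evening genes spread to both sides of 0 with a median of -0.01, whereas 10 of the 13 morning genes are lower.

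Likeness of pattern was measured as the root mean square distance between log2 CPM profiles over the 12 libraries, each centred on its own mean. For ZTL the nearest of the tested genes were AT3G14595 (0.0782), AT1G02150 (0.0828) and CLA1 (0.0883), the enzyme of the first step of plastid isoprenoid synthesis, against a median of 0.7 over all genes. PRR5 was nearest to AT1G44000 (0.329), AT5G50450 (0.332) and AT3G56290 (0.334), with a median of 1.49. GI was nearest to MEE62 (0.328), GAPCP-1 (0.354), a plastid glyceraldehyde-3-phosphate dehydrogenase, and AT1G63310 (0.363), with a median of 0.992. LUX was nearest to AT5G11880 (0.113), AT2G38550 (0.136) and AT1G65020 (0.143), with a median of 0.549. No evening gene was among these. The closest pair of members was TOC1 and ELF3, at 0.211. These distances share the libraries and their scaling and carry no test.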

How the data were processed

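RNA sequencing counts of 12 seedling libraries, 3 in each of 4 groups, were analysed. A NEBNext kit was used for messenger RNA, per the labels' protocols. FastQC, Bowtie 0.12.8, SAMtools 0.1.18 and TAIR10 were used, per the submitters' processing notes. How reads were counted, on which strand, and what was done with multiple hits is not stated in the labels or notes used here. Raw counts were deposited for 28775 genes, of which 28009 matched TAIR10.1 by locus. The count files hold no coordinates, and promoters, gene models and exon overlaps came from TAIR10.1.

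Counts were tested with edgeR 4.0.16 (R 4.3.3) on all 12 libraries with group as the only term. filterByExpr with a minimum count of 10 left 18388 genes, TMM scaled the libraries, and the common biological coefficient of variation was 13.2%. DESeq2 1.42.0 and limma 3.58.1 were among 10 alternatives, and each of the 12 libraries was left out in turn. The edgeR test was also run on simulated counts in which a small share of genes was raised. That run does not cover a comparison in which 68.4% of all genes were called, as in the SnRK1-labelled line. Replicates of a group differed by more than sampling noise, and none was merged. The precision of a level follows the counts behind it, which were under 20 in several libraries for ELF4, PRR3 and FKF1.

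The members and gene lists were chosen with earlier results of these data known. All 9 members were described. Up to 4 genes with the smallest p in the SnRK1 comparison, and any called in the S1 comparison, were named from each other list. The 3 nearest patterns were named for members called in the SnRK1 comparison or the difference.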

Additional observations from a re-analysis of the deposited data

Results flagged for a closer look

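Groups of 3 libraries are too small for a check of single outlying samples. The results below are listed because the responses of the 2 lines, each against its own wild type, differed in edgeR's test of the difference itself. Values are log2, SnRK1-labelled minus S1-labelled. In that test 54.5% of all genes tested were called, so a call does not set a gene apart. Among the evening genes these were GI (1.27), LUX (0.75), PRR5 (-2.22) and ZTL (-1.37). In the SnRK1-labelled line GI was higher, while its difference in the S1-labelled line (-0.49) did not pass the test.

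The morning genes CCA1 (-1.53), RVE1 (-2.61), RVE4 (-1.84) and RVE8 (-1.71) differed in the same way as PRR5 and ZTL. So did the ZTL relative LKP2 (-1.02), the factors LWD1 (-1.34), CHE (-1.14), SKIP (-1.05) and CKB3 (-1.28), the outputs COL2 (-1.98), CDF2 (-1.13), CDF3 (-0.94) and PIF5 (-1.36), and the light receptors PHYA (-1.18), CRY1 (-1.58) and CRY2 (-1.0035). The LUX relative BOA (1.81) and the red light receptor PHYB (1.95) differed upward. The genes of this paragraph had been named for a small p in the SnRK1 comparison, which is part of the difference. Their calls here therefore add no separate evidence. Genotype and length of Est treatment cannot be told apart in these differences.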

How the results depend on the processing

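PRR5 and ZTL (lower) and GI (higher) were called in the SnRK1-labelled line under all 22 other settings, and no member was called in the S1-labelled line under any. Where a value moved, the cause was not tested.

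By library totals alone, calls over all genes were 10465 higher and 2938 lower (SnRK1-labelled), 558 and 102 (S1-labelled), 7678 and 2601 (difference), and 724 higher (wild types). On the 5000 most expressed genes 4004 (SnRK1-labelled) and 3207 (difference) were lower. With only the groups compared, the S1-labelled line had 578 higher and 451 lower. Members called higher were 4 by library totals alone in the SnRK1-labelled line and in the difference, 4 on the 5000 most expressed genes in the line, and 1 by limma-voom in the difference.

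Uncalled values that changed sign by library totals alone were PRR3 (0.23) and FKF1 (0.45) in the SnRK1-labelled line and FKF1 (0.10) in the difference. On the 5000 most expressed genes FKF1 was 0.22 in the line. In the difference TOC1 was 0.45 by library totals alone, where it was called, 0.32 on the 5000 most expressed genes and 0.0016 with at least 5 CPM in 3 libraries. There ELF3 was -0.011 by limma-voom, -0.0172 with no filter and -0.0035 without organelle genes.

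Leaving out each library in turn gave 1 to 2 members called higher in the SnRK1-labelled line and in the difference. In the S1-labelled line 91 to 504 genes were higher and 39 to 362 lower, and between the wild types 622 to 1450 and 589 to 1409. FKF1 ran from -0.52 to 0.10 in the SnRK1-labelled line and from -0.049 to 0.41 in the S1-labelled line. In the difference TOC1 ran from -0.13 to 0.048 and ELF3 from -0.13 to 0.070. Between the wild types LUX ran from -0.25 to 0.047 and PRR3 from -0.16 to 0.15.

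With the replicate number as a block, ELF3 was -0.00549 in the difference and no member's call changed. Deviations of same-numbered libraries from their group means had correlations of 0.118, -0.0076 and -0.0191 in the SnRK1 comparison. In the S1 comparison these were 0.0432, -0.0276 and -0.0917. With 3 libraries in a group, such values cannot decide whether same-numbered libraries were grown or prepared together.

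ELF4 could not be tested, the stricter filter removed PRR3 and FKF1, and the fits with only the groups compared gave no difference of responses. Depth limits ELF4, PRR3 and FKF1 most.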
